A study of Mus musculus with 18 samples.

Results

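The 44 genes described here copy the DNA of the cell and divide its chromosomes. A set of 23 acts at the entry into S phase and during DNA synthesis, and 21 act in G2 and mitosis. Members were the rows of the count table whose gene name stood on this list, 44 of 55487 genes in the table, and all 44 passed the filter on low counts, since no library held fewer than 313 counts of any of them. They were read by RNA-seq of mouse embryonic fibroblasts (MEFs), a cell line of genotype WT that the study bought from a cell bank, in 18 libraries that form 6 groups of 3. Scm cells were kept in complete medium made with S-FBS, a fetal bovine serum in which MEFs are sensitive to ferroptosis, the iron-dependent death that follows lipid peroxidation. Rcm cells were kept in complete medium made with R-FBS, a serum in which they resist it. S-Rcm cells were moved from Scm to Rcm, and R-Scm cells from Rcm to Scm, and each exchange was read after 12 h and after 24 h. In the study's scheme the steady groups kept their medium, and no group had it renewed with the same serum. The effect of the other serum therefore cannot be told apart from that of fresh medium or of longer culture. The labels list no inducer of ferroptosis and no gene change in any group. They do not say whether the 3 libraries of a group came from separate cultures. The study's methods speak of at least 3 independent replicates for work on cultured cells in general, without naming these libraries, so that a p-value here measures the spread between these libraries, which may be technical. The question asked of these genes was whether the serum, or the exchange of the serum, moved the cells between proliferation and rest or between phases of the cell cycle.

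As background, growth factors in serum bring resting fibroblasts into the cell cycle. D-type and E-type cyclins with their kinases phosphorylate the retinoblastoma family, which frees E2F factors to switch on the genes of DNA synthesis. Genes of G2 and mitosis are held down by the DREAM complex through an element named the cell cycle genes homology region (CHR) and are later driven from it, with B-Myb and FoxM1 as partners and with NF-Y bound at nearby CCAAT boxes. In a dividing culture the mRNA of both groups therefore rises and falls with the share of cells in each phase. In RNA of a whole culture, fewer cells in a phase and less RNA of a gene per cell cannot be told apart.

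The promoters of 5 members are printed because they carry the elements through which the S-phase and the G2/M genes are known to be driven as separate groups. The stretches run from 160 bases before to 30 after the RefSeq transcription start, 190 bases each, on GRCm38.p6, in the direction of the gene. Capitals mark matches, on either strand, to the E2F-like letters TTTCCCGC, TTTGGCGC or TTTCGCGC, to the CHR letters TTTGAA or TTCGAA, and to CCAAT. Overlapping matches run together, as in the E2F-like matches of Mcm5 and Mcm6. Mcm5 (chr8:75109349-75109538, plus strand) and Mcm6 (chr1:128359676-128359865, minus strand) encode subunits of the replicative helicase and stand for the S-phase genes. Cdk1 (chr10:69352883-69353072, minus strand), the mitotic kinase, Ccnb2 (chr9:70421525-70421714, minus strand), a B-type cyclin, and Cdc20 (chr4:118437314-118437503, minus strand), an activator of the anaphase-promoting complex, stand for the G2/M genes.
Mcm5: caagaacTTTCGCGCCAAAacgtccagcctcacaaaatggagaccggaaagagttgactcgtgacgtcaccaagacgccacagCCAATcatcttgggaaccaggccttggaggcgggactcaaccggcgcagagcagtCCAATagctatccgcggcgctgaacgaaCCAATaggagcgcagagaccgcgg
Mcm6: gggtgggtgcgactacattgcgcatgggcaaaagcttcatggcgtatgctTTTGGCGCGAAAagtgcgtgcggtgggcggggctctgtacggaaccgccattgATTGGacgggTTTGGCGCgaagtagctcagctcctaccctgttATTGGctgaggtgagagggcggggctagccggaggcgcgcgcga
Cdk1: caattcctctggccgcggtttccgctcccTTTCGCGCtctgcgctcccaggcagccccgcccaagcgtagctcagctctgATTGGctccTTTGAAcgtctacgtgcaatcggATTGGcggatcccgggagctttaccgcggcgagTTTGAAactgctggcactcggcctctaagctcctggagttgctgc
Ccnb2: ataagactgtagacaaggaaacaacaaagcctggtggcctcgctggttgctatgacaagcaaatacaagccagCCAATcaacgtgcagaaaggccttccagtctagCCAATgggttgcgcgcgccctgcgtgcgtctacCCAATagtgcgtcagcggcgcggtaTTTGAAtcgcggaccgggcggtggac
Cdc20: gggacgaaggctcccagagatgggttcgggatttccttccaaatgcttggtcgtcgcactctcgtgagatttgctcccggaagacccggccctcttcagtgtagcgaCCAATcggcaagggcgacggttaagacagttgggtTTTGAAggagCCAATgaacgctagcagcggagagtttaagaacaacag

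The Mcm5 stretch held 2 E2F-like matches and 3 CCAAT boxes, and that of Mcm6 held 3 and 2, with no CHR letters in either. Cdk1 held 1 E2F-like match, 2 CHR matches and 2 CCAAT boxes. Ccnb2 and Cdc20 held 1 CHR match each, with 3 and 2 CCAAT boxes, and no E2F-like match. Windows of 300 bases, from 250 before to 50 after the start, were found for 35 of the 44 members, 18 S-phase genes in 19 windows and 17 G2/M genes in 18 windows. E2F-like letters stood in 7 of 19 S-phase windows (36.8%), in 1 of 18 G2/M windows (5.56%, that of Cdk1) and in 1.84% of all 32851 windows. CHR letters stood in 4 of 19 S-phase windows (21.1%), in 14 of 18 G2/M windows (77.8%) and in 19.2% of all windows. CCAAT stood in 68.4% of the S-phase windows, 88.9% of the G2/M windows and 37.4% of all. A match is a description of these letters and not a measured site.

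Total counts ran from 14534906 to 20313715 per library, and the 44 members took 0.834% to 1.05% of them. The culture carried fibroblast markers at a summed 9519 to 13619 CPM, the counts of a gene divided by the scaled library total and given per 1e+06 counts, over 12 genes, with Vim, Fn1 and Col1a2 among the highest, while Lum was near 0. Dcn was low too, at 1.38 to 10.1 CPM, and Postn ran from 5.66 to 158 CPM. Markers of macrophages (7 genes) summed to at most 5.46 CPM, of endothelium (6) to 3.43, of epithelium (6) to 1.53 and of muscle (4) to 5.84, and Adgre1, Tyrobp, Myod1 and Myog were at 0 counts in every library. The 5 neural markers summed to 24.8 to 44.3 CPM, from Tubb3, Map2 and Mbp, with Sox10 at 0. Genes of the mitochondrial genome took 1.81% to 3.41% of counts. Replicates of a group differed in every pair by more than sampling noise (chi-square over its degrees of freedom, 9.72 to 43.1), so no library was a copy of another of its group.

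Each member was present at a level that these depths read closely. Per kilobase of the longest transcript, the mean over 18 libraries was highest for Pcna (174 CPM per kb), the sliding clamp of the replication fork, and Top2a (174 CPM per kb), the topoisomerase that untangles sister chromatids. The S-phase genes at the low end were Gins2 (13.6 CPM per kb) and Mcm10 (14.0 CPM per kb), both needed to start the helicase, and the lowest G2/M gene was Cenpf (12.8 CPM per kb), a protein of the outer kinetochore. The spread between libraries of 1 group was wider for the G2/M genes. Their standard deviation on the log2 scale had a median of 0.18 and ran from 0.086 for Tpx2, a spindle assembly factor, to 0.32 for Prc1, which bundles microtubules at the midzone. That of the S-phase genes had a median of 0.11 and ran from 0.057 for Mcm4 to 0.24 for Ccne2. These values average over all 6 groups, and R-Scm 12 h holds a library that stood apart in the G2/M genes, described below. The mean log2 deviation of the G2/M genes had an SD of 0.32 in that group and of 0.012 to 0.10 in the others. The map of all 44 genes by library shows this spread.

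**Figure D1:**
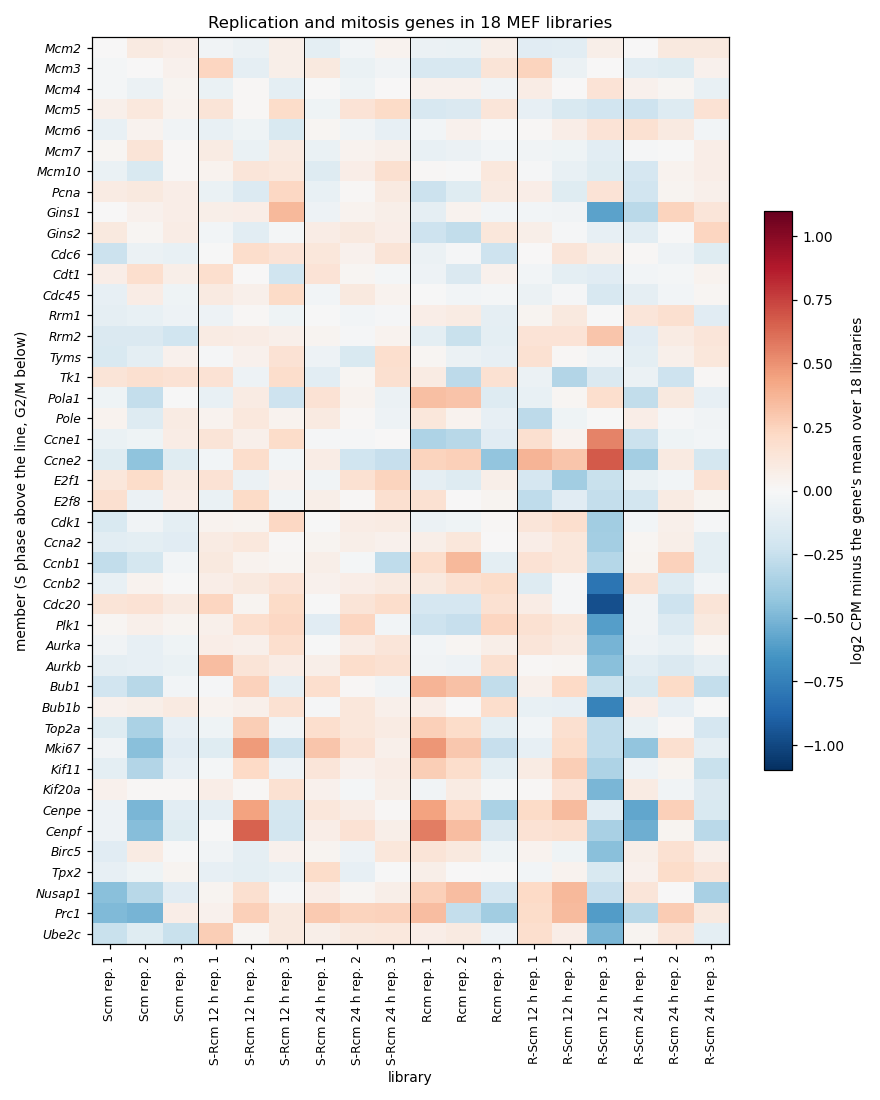
Log2 CPM of each member in each library (columns, grouped by condition) minus the gene's mean over 18 libraries, with S-phase genes above the line and G2/M genes below it. The column of R-Scm 12 h replicate 3 is low for the G2/M genes, with a mean deviation of -0.44 over the 21 genes.

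A library stood apart in these genes. In R-Scm 12 h replicate 3 the 21 G2/M members lay on average 0.44 below their 18-library means on the log2 scale, while the other 17 libraries ran from -0.17 to 0.16. All 21 were lower there than in both other libraries of the group, against 37.8% of all genes tested, and 15 of the 21 had their lowest value of all 18 libraries there, against 1937 of 15381 genes tested. The ratio to the mean of replicates 1 and 2 had a median of 0.696 and ran from 0.498 for Cdc20 to 0.887 for Tpx2. The 15 were Cdk1, Ccna2, Ccnb1, Ccnb2, Cdc20, Plk1, Aurka, Aurkb, Bub1b, Kif11, Kif20a, Birc5, Tpx2, Prc1 and Ube2c. The 6 others were Bub1, Top2a, Mki67, Cenpe, Cenpf and Nusap1. The 23 S-phase genes did not share the shift, with a mean deviation of 0.0063 within the -0.099 to 0.057 of the other libraries, 9 genes below and 9 above both other replicates, and a median ratio of 0.997. The 55 further G2/M genes read as a comparison list were low in this library too, at -0.34 against -0.10 to 0.12 elsewhere. Of all genes tested, 12.6% had their lowest and 14.0% their highest of 18 values there, the largest shares of any library. Among 52 other S-phase genes 8 were lowest and 14 highest there. The same library held the highest share of mitochondrial counts, 3.41%, and its part in the shift was not tested. This library was picked out after its values were seen, and the results on R-Scm 12 h that rest on it are given below with and without it.

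**Figure D2:**
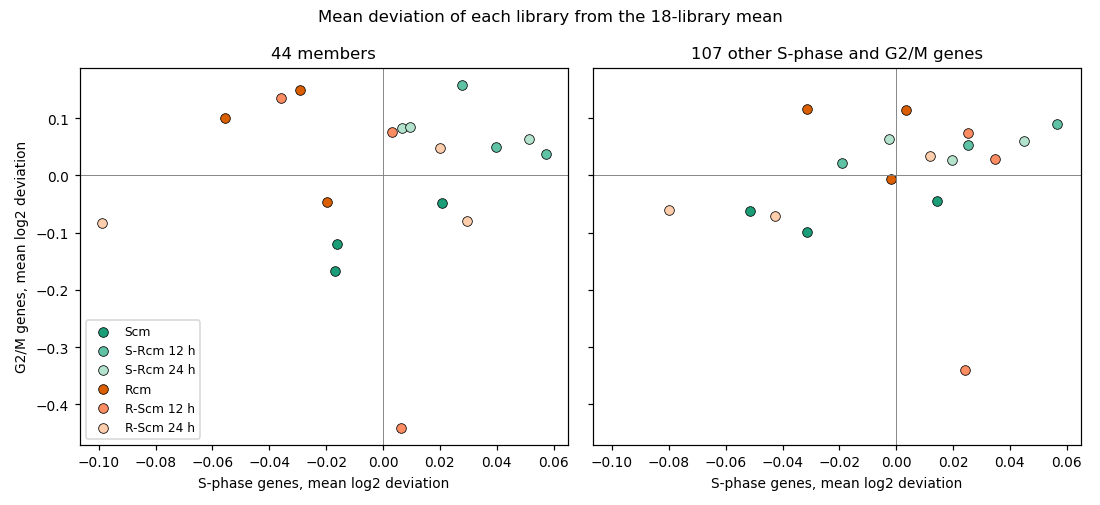
Mean log2 deviation of the S-phase genes (horizontal) and the G2/M genes (vertical) of each library from the mean of all 18, for the 44 members (left) and for 107 other S-phase and G2/M genes (right). Points are libraries coloured by group. R-Scm 12 h replicate 3 lies at -0.44 for the G2/M members, below the -0.17 to 0.16 of the others.

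Most genes that license origins and build the helicase differed by small steps between libraries. Mcm2, a subunit of the helicase ring, stood at 327, 349 and 343 CPM in Scm, at 317, 312 and 340.1 after 12 h in Rcm and at 302, 318 and 334 after 24 h. Its levels were 311, 309.9 and 339.7 CPM in Rcm, 299.5, 300.2 and 340.3 after 12 h in Scm and 327, 351 and 350.5 after 24 h. The highest library was 1.17 times the lowest, and the groups overlapped in every comparison. Mcm5, another subunit of the ring, had 447, 465 and 441 CPM in Scm, 475, 433 and 493 in S-Rcm 12 h and 415, 478 and 499 in S-Rcm 24 h. In Rcm it had 380.1, 385 and 472 CPM, in R-Scm 12 h 404, 382 and 371 and in R-Scm 24 h 367, 389 and 481. Rcm replicates 1 and 2 were below all Scm libraries and Rcm replicate 3 was above them. Mcm10, which helps the loaded helicase to fire, had 64.8, 60.6 and 68.9 CPM in Scm, 70.2, 74.9 and 73.9 in S-Rcm 12 h and 61.9, 71.6 and 76.8 in S-Rcm 24 h. On the other side it had 68.7, 67.9 and 74.0 CPM in Rcm, 67.5, 64.5 and 62.2 12 h after the move to Scm and 59.8, 69.9 and 71.6 at 24 h. At 12 h both exchanges were clear of the group they left, S-Rcm above Scm and R-Scm below Rcm. Gins2, part of the GINS complex of the active helicase, had 56.8, 53.3 and 55.9 CPM in Scm, 51.6, 48.5 and 51.7 in S-Rcm 12 h and 55.6, 56.6 and 55.4 in S-Rcm 24 h. It had 44.9, 43.7 and 57.3 CPM in Rcm, 55.2, 52.2 and 49.5 after 12 h in Scm and 48.7, 52.5 and 61.9 after 24 h there. S-Rcm 12 h lay below Scm and below S-Rcm 24 h without overlap. Cdc6, which loads the helicase, had 59.5, 67.2 and 66.4 CPM in Scm, 70.0, 80.2 and 77.7 in S-Rcm 12 h and 76.6, 72.5 and 77.3 in S-Rcm 24 h. It had 66.9, 69.6 and 59.8 CPM in Rcm, 70.1, 77.0 and 73.3 12 h after the move to Scm and 70.6, 67.5 and 64.0 at 24 h. Cdc6 was higher than in the group of origin in every library of S-Rcm at both times and of R-Scm 12 h.

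Among the genes of synthesis and nucleotide supply, Rrm2 was above the culture left in every library of S-Rcm at both times and of R-Scm 12 h. Pcna had 280.1, 284 and 277 CPM in Scm, 251, 237 and 309 in S-Rcm 12 h and 249, 266 and 283 in S-Rcm 24 h. It had 223, 240.2 and 282 CPM in Rcm, 277, 240.3 and 292 after 12 h in Scm and 228, 269 and 275 after 24 h there. Its groups overlapped in every comparison. Pola1, the catalytic subunit of the polymerase that lays down primers, had 108, 93.4 and 112 CPM in Scm, 106, 119.5 and 95.9 in S-Rcm 12 h and 125, 115 and 107 in S-Rcm 24 h. In Rcm it had 141, 139.5 and 101 CPM, in R-Scm 12 h 106, 114 and 128 and in R-Scm 24 h 93.1, 121 and 105. Rcm replicates 1 and 2 were the highest of the 18 libraries, while Rcm replicate 3 lay within the Scm range. Rrm2, the small subunit of ribonucleotide reductase, which makes deoxynucleotides, had 211, 209.9 and 202 CPM in Scm, 251, 249 and 244 in S-Rcm 12 h and 241, 233 and 242 in S-Rcm 24 h. It had 217, 199 and 219 CPM in Rcm, 260.3, 260.3 and 289.7 12 h after the move to Scm and 216, 251 and 257 at 24 h. Both exchanges at 12 h were above the group of origin in every library and above the same exchange at 24 h.

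The drivers of S-phase entry included Ccne2, whose group means ranged over 0.69 on the log2 scale, the widest of the 44 members. Ccne1, the E-type cyclin that activates Cdk2, had 52.6, 53.5 and 58.4 CPM in Scm, 61.2, 57.4 and 63.5 in S-Rcm 12 h and 55.0, 54.8 and 55.4 in S-Rcm 24 h. It had 43.8, 44.9 and 50.8 CPM in Rcm, 62.4, 56.7 and 80.8 after 12 h in Scm and 46.9, 53.6 and 54.1 after 24 h there. Rcm was below Scm and below R-Scm 12 h in every library, and R-Scm 12 h replicate 3 was the highest library. Ccne2, the other E-type cyclin, had 41.9, 34.0 and 41.9 CPM in Scm, 45.2, 52.7 and 45.0 in S-Rcm 12 h and 48.7, 39.6 and 38.7 in S-Rcm 24 h. It had 54.7, 55.2 and 34.0 CPM in Rcm, 59.6, 56.8 and 73.6 12 h after the move to Scm and 35.6, 49.4 and 40.4 at 24 h. R-Scm 12 h lay above both Rcm and R-Scm 24 h, and again replicate 3 was highest. Ccne2 shares 609 exon bases with Ints8 on the opposite strand, which had 20293 counts over all libraries against 14492 for Ccne2, and whether the counting used strand is not given in the sources used here. E2f1, the activator E2F factor, had 127, 135 and 124 CPM in Scm, 130.5, 112 and 121 in S-Rcm 12 h and 114, 131 and 139 in S-Rcm 24 h. It had 109, 106 and 122 CPM in Rcm, 103, 89.6 and 98.4 after 12 h in Scm and 111, 115 and 131 after 24 h there. E2f1 was lower in Rcm than in Scm and lower still in R-Scm 12 h, with no overlap at either step, opposite in direction to the E-type cyclins after that exchange.

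Cdk1, Aurkb and the B-type cyclins were higher in S-Rcm 12 h than in Scm in every library. Cdk1 had 252, 277 and 265 CPM in Scm, 292, 289 and 333 in S-Rcm 12 h and 283, 301 and 302 in S-Rcm 24 h. It had 271, 275 and 287 CPM in Rcm, 311, 322 and 219 12 h after the move to Scm and 279, 296 and 282 at 24 h. Both times of S-Rcm were above Scm without overlap. Ccnb1, the main mitotic cyclin, had 132, 139 and 156 CPM in Scm, 172, 164 and 162 in S-Rcm 12 h and 167, 158 and 131 in S-Rcm 24 h. It had 182, 204 and 149 CPM in Rcm, 178, 174 and 128 after 12 h in Scm and 164, 190.1 and 148 after 24 h there. Only S-Rcm 12 h stood clear of its group of origin. Ccnb2 had 144, 156 and 151 CPM in Scm, 159.9, 164 and 168 in S-Rcm 12 h and 156, 159 and 162 in S-Rcm 24 h. It had 163, 171 and 175 CPM in Rcm, 137, 149.9 and 86.8 12 h after the move to Scm and 170.0, 137 and 148 at 24 h. Rcm and both times of S-Rcm were above Scm, and R-Scm 12 h was below Rcm, in every library. Aurkb, the kinase of the chromosomal passenger complex, had 66.6, 67.3 and 67.9 CPM in Scm, 90.4, 78.8 and 75.8 in S-Rcm 12 h and 74.8, 81.7 and 80.2 in S-Rcm 24 h. It had 69.4, 68.6 and 81.0 CPM in Rcm, 72.0, 72.5 and 52.1 after 12 h in Scm and 66.0, 64.0 and 66.7 after 24 h there. All libraries of Rcm and of S-Rcm were above those of Scm, and R-Scm 24 h lay below Rcm.

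The genes of anaphase and the spindle checkpoint gave mixed pictures. Cdc20 had 249.6, 252 and 241 CPM in Scm, 266, 229.9 and 262 in S-Rcm 12 h and 225, 249.6 and 258 in S-Rcm 24 h. It had 199, 198 and 254 CPM in Rcm, 239, 224 and 115 12 h after the move to Scm and 220.0, 193 and 249 at 24 h. Its groups overlapped in every comparison, and R-Scm 12 h replicate 3 was far below the rest. Ube2c, the ubiquitin-conjugating enzyme that works with the anaphase-promoting complex, had 257, 277 and 257 CPM in Scm, 368, 309 and 328 in S-Rcm 12 h and 319, 328 and 330.3 in S-Rcm 24 h. It had 319, 325 and 292 CPM in Rcm, 345, 319 and 214 after 12 h in Scm and 310.3, 333 and 283 after 24 h there. Ube2c was higher in Rcm and in S-Rcm at both times than in any Scm library. Bub1b, a kinetochore checkpoint protein, had 221, 223 and 229 CPM in Scm, 219, 222 and 239.6 in S-Rcm 12 h and 211, 233 and 222 in S-Rcm 24 h. It had 225, 214 and 244 CPM in Rcm, 202, 201 and 128 12 h after the move to Scm and 225, 199.8 and 213 at 24 h. R-Scm 12 h was below Rcm in every library, by far the most in replicate 3.

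Several genes of chromosome structure and the spindle stood higher in S-Rcm than in Scm. Top2a had 821, 707 and 848 CPM in Scm, 873, 1087 and 877 in S-Rcm 12 h and 1025, 984 and 959 in S-Rcm 24 h. It had 1082, 1039.5 and 837 CPM in Rcm, 885, 1019 and 742 after 12 h in Scm and 859, 909 and 795 after 24 h there. S-Rcm was above Scm in every library at both times, while Rcm replicate 3 fell within the Scm range. Mki67, the proliferation marker that coats mitotic chromosomes, had 312, 233 and 293 CPM in Scm, 291, 441 and 271 in S-Rcm 12 h and 394, 358 and 333 in S-Rcm 24 h. It had 448, 393 and 268 CPM in Rcm, 301, 367 and 264 12 h after the move to Scm and 237, 360.2 and 298 at 24 h. Only S-Rcm 24 h was clear of its group of origin. Cenpf had 135, 101 and 127 CPM in Scm, 139, 218 and 122 in S-Rcm 12 h and 147, 156 and 146 in S-Rcm 24 h. It had 206, 176 and 125 CPM in Rcm, 156, 158 and 109 after 12 h in Scm and 96.4, 142 and 114 after 24 h there. Rcm replicate 1 and S-Rcm 12 h replicate 2 held its highest values, and R-Scm 24 h replicate 1 its lowest, and S-Rcm 24 h was above Scm in every library. Nusap1, a protein of spindle microtubules, had 90.7, 101 and 115 CPM in Scm, 127, 141 and 124 in S-Rcm 12 h and 131, 127 and 130.0 in S-Rcm 24 h. It had 149, 157 and 109 CPM in Rcm, 145, 159.9 and 105 12 h after the move to Scm and 136, 125 and 97.4 at 24 h. Both times of S-Rcm were above Scm. Birc5 (survivin), a passenger complex subunit, had 148, 172 and 161 CPM in Scm, 157, 151 and 166 in S-Rcm 12 h and 165, 156 and 176 in S-Rcm 24 h. It had 178, 174 and 156 CPM in Rcm, 166, 157 and 118 after 12 h in Scm and 169, 182 and 168 after 24 h there. R-Scm 24 h was above R-Scm 12 h in every library. Tpx2 had 333, 341 and 360.3 CPM in Scm, 332, 329 and 333 in S-Rcm 12 h and 406, 332 and 353 in S-Rcm 24 h. It had 369, 355 and 353 CPM in Rcm, 347, 364 and 315 12 h after the move to Scm and 365, 407 and 387 at 24 h. It varied least of the G2/M genes and also stood higher in R-Scm 24 h than in R-Scm 12 h.

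**Figure D3:**
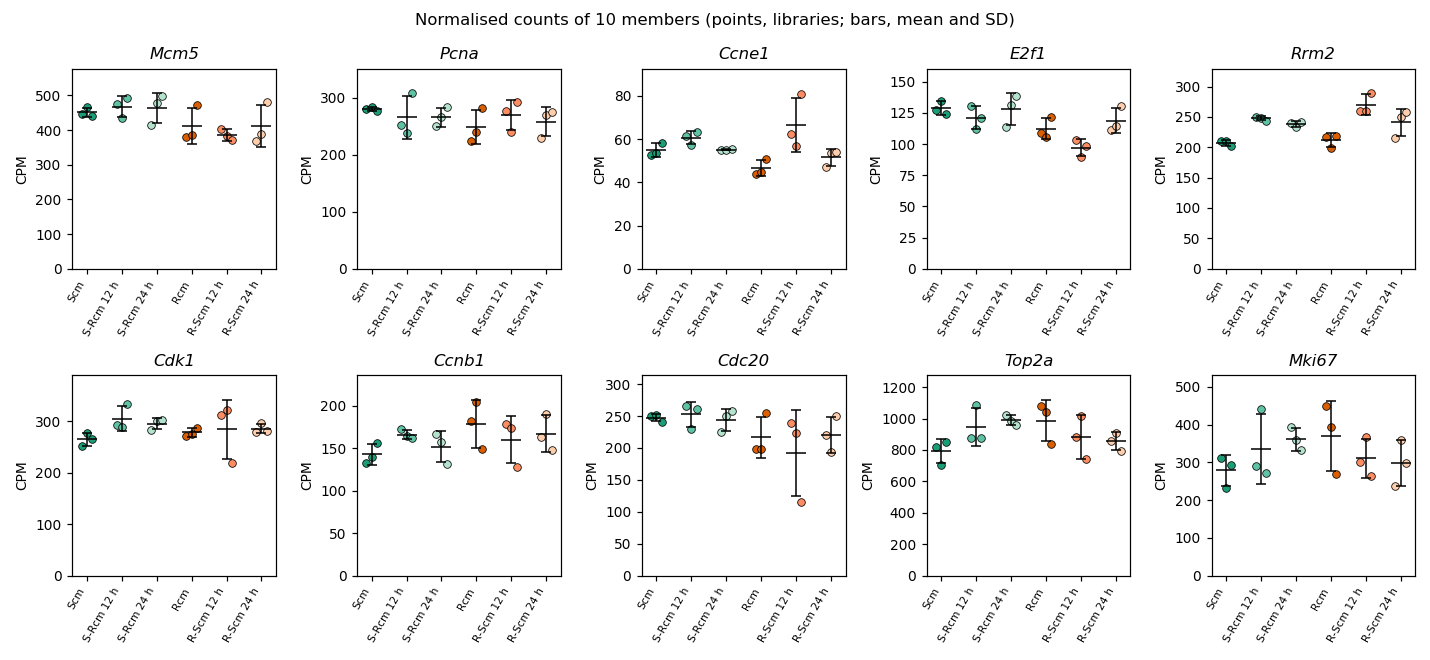
CPM of 10 members by group: Mcm5, Pcna, Ccne1, E2f1 and Rrm2 of S phase, and Cdk1, Ccnb1, Cdc20, Top2a and Mki67 of G2/M. Points are libraries and bars the mean and SD of 3. Rrm2 in R-Scm 12 h (260 to 290 CPM) lies above the 3 Rcm libraries (199 to 219 CPM), while most other groups overlap.

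The remaining members moved within similar bounds. Of the S-phase genes not given by library (Mcm3, Mcm4, Mcm6, Mcm7, Gins1, Cdt1, Cdc45, Rrm1, Tyms, Tk1, Pole and E2f8), the highest library was 1.19 times the lowest for Mcm4 and Mcm7 and 1.92 times for Gins1, with the others between. Of the G2/M genes not given by library (Ccna2, Plk1, Aurka, Bub1, Kif11, Kif20a, Cenpe and Prc1), this ratio ran from 1.42 for Ccna2 to 2.02 for Cenpe.

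Steady culture in Rcm was compared with steady culture in Scm to ask whether the serum itself sets proliferation apart. S-phase genes had no common direction, with a median log2 fold change of -0.0033, 11 genes higher and 12 lower. G2/M genes sat slightly higher in Rcm, with a median of 0.18, 18 higher and 3 lower (Cdc20, Plk1 and Kif20a), against a median of 0.012 over all genes tested. No member passed the test. By edgeR's quasi-likelihood test, 0 of 44 members were differentially expressed at an adjusted p under 0.05 and an absolute log2 fold change above 0.58, where 2.3% of the 15381 genes tested were. DESeq2 also called 0, and 5 members had an unadjusted p under 0.05 (16.2% of all genes did). The G2/M genes of smallest p were Nusap1 at 0.44 (SE 0.16, adjusted p = 0.18) and Top2a at 0.32 (SE 0.13, adjusted p = 0.226). The S-phase genes of smallest p were Pola1 at 0.28 (SE 0.13, adjusted p = 0.309) and Ccne1 at -0.24 (SE 0.11, adjusted p = 0.31). The 95% interval of the fold change lay within 0.58 of 0 for 33 of 44 members, against 48.4% of all genes, and the interval that reached farthest from 0, that of Cenpf, ran 0.01 to 0.96. Libraries of the groups did not overlap for 9 members (23.9% of all genes, 12.8% higher and 11.2% lower): 4 S-phase genes lower in Rcm (Mcm7, Cdt1, Ccne1 and E2f1) and 5 G2/M genes higher (Ccna2, Ccnb2, Aurka, Aurkb and Ube2c).

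The difference moved with the GC content of the transcript, and Rcm replicate 3 went the other way from replicates 1 and 2. Across the 44 members, Spearman's rho between log2 fold change and transcript GC was -0.75, and -0.33 across all 15360 genes with a value. This is a description with no test, since genes of 1 library share its base composition. The members' rho was -0.47 in S-Rcm 12 h (-0.035 over all genes) and -0.57 in S-Rcm 24 h (-0.096), each against Scm. Against Rcm it was -0.07 in R-Scm 12 h (-0.16 over all genes) and 0.45 in R-Scm 24 h (0.14). By library, the deviation of the members correlated with GC at -0.67 and -0.69 in Rcm replicates 1 and 2 but at 0.71 in Rcm replicate 3. With a GC and length trend removed, the G2/M median of Rcm against Scm was 0.10 (18 higher, 3 lower) and that of the S-phase genes -0.072 (2 higher, 21 lower). Without Rcm replicate 3, 574 of all genes were called, against 354 in full, and 16 members had an unadjusted p under 0.05, beside 24.9% of all genes in that fit. Nusap1 then reached an adjusted p of 0.0492 (edgeR) at a log2 fold change of 0.57, short of the fold threshold. The part of GC content in these differences was not tested.

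**Figure D4:**
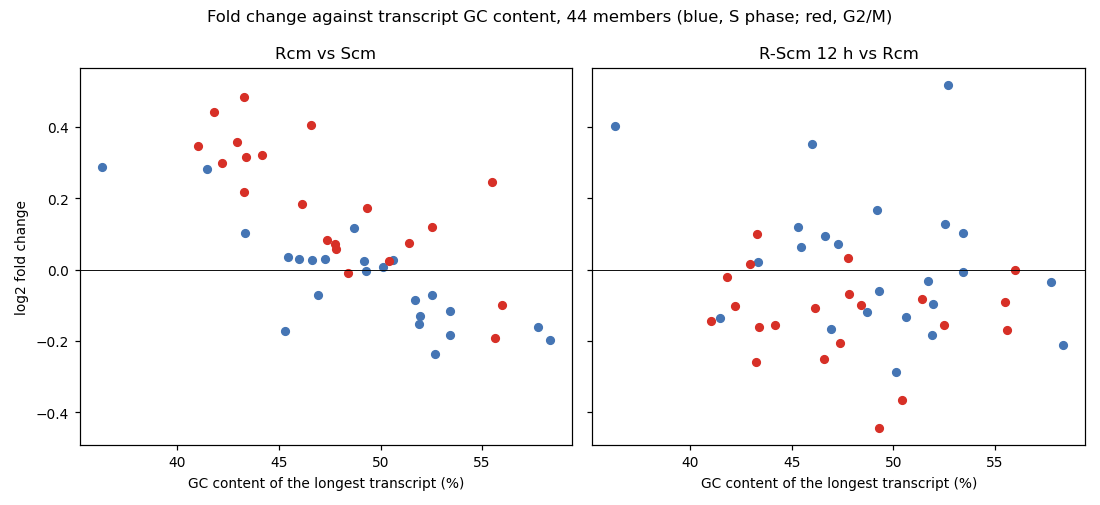
Log2 fold change of each member (vertical) against the GC content of its longest transcript in percent (horizontal) for Rcm against Scm (left) and R-Scm 12 h against Rcm (right), with S-phase genes in blue and G2/M genes in red. In the left panel the AT-rich genes lie higher (rho -0.75), and in the right panel no such slope is seen (rho -0.07).

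Cells moved from Rcm to Scm were read against Rcm, which joins the loss of R-FBS with the change of medium. After 12 h the E-type cyclin Ccne1 and the ribonucleotide reductase subunit Rrm2 passed the adjusted p but not the fold threshold. Ccne1 (GRCm38 chr7:38097984-38107534, minus strand) was higher by 0.52 (SE 0.11, adjusted p = 0.0134) and Rrm2 (chr12:24708241-24714146, plus strand) by 0.35 (SE 0.077, adjusted p = 0.0138) on the log2 scale, by edgeR. Mitotic genes sat lower, led by Ccnb2 and Bub1b, and none passed. Of 44 members, 0 were differentially expressed by edgeR (2.74% of all genes) and 0 by DESeq2, 2 passed the adjusted p alone (4.19% of all genes) and 7 had an unadjusted p under 0.05 (17.6%). The 7 were Ccne1, Rrm2 and Ccne2, which were higher, and E2f1, E2f8, Ccnb2 and Bub1b, which were lower. Ccnb2 differed by -0.44 (SE 0.14, adjusted p = 0.0847) and Bub1b by -0.36 (SE 0.13, adjusted p = 0.124). The S-phase median was -0.0069 (11 higher, 12 lower) and the G2/M median -0.11 (3 higher, 18 lower), beside -0.0077 for all genes. Groups did not overlap for 9 members (23.4% of all genes, 11.7% in each direction): Cdc6, Rrm2, Ccne1 and Ccne2 higher, and Mcm10, E2f1, E2f8, Ccnb2 and Bub1b lower. The 95% intervals of 37 of 44 members lay within 0.58 of 0 (49.5% of all genes).

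The G2/M difference at 12 h was not seen without R-Scm 12 h replicate 3. By edgeR 0 members were then called (275 genes in all, against 421), and 6 had an unadjusted p under 0.05, beside 13.4% of all genes in that fit. The S-phase median was 0.018, with 12 higher and 11 lower. The G2/M median was 0.035, with 11 genes higher and 10 lower, and that of the 55 other G2/M genes was -3.3e-05, with 27 higher and 28 lower. Ccnb2 was then at -0.24 and Bub1b at -0.18. Rrm2 and Ccne1 kept their direction without that library, at 0.30 and 0.36, but neither passed the adjusted p. Without R-Scm 12 h replicate 2, which leaves replicate 3 with more weight, Ccne1 (0.62, adjusted p = 0.00606, edgeR) and Ccnb2 (-0.60, adjusted p = 0.0292, edgeR) passed both thresholds, and without Rcm replicate 3 Ccne1 did (0.59, adjusted p = 0.0194, edgeR).

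After 24 h in Scm no member passed, and the G2/M genes sat slightly lower than in Rcm. Their median was close to the 12 h median of -0.11, but without R-Scm 12 h replicate 3 that of 12 h was 0.035. By edgeR 0 of 44 were differentially expressed (0.377% of all genes), 0 by DESeq2, and 2 had an unadjusted p under 0.05 (10.3% of all genes), Rrm2 and Cenpf. Rrm2 stood at 0.19 (SE 0.077, adjusted p = 0.379) and Pola1 at -0.26 (SE 0.13, adjusted p = 0.546). Cenpf stood at -0.53 (SE 0.22, adjusted p = 0.407) and Top2a at -0.21 (SE 0.13, adjusted p = 0.627). The S-phase median was 0.045 (14 higher, 9 lower) and the G2/M median -0.093 (6 higher, 15 lower), beside -0.0013 for all genes. Groups did not overlap for 2 members (11.2% of all genes, 5.57% higher and 5.64% lower), Mcm7 higher and Aurkb lower. Intervals lay within 0.58 of 0 for 39 of 44 members (53.2% of all genes). With single libraries left out the G2/M median ran from -0.089 to -0.057. The number of members with an unadjusted p under 0.05 (edgeR) then ran from 0, without Rcm replicate 2 or R-Scm 24 h replicate 3, to 10. The 10 came without Rcm replicate 3, beside 13.9% of all genes in that fit.

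Between 12 h and 24 h of this exchange the E-type cyclins were lower and E2f1 higher at the later time. Ccne2 differed by -0.60 (SE 0.17, adjusted p = 0.125) and Ccne1 by -0.37 (SE 0.11, adjusted p = 0.144), and neither passed by edgeR. Birc5 stood at 0.24 (SE 0.11, adjusted p = 0.358) and Tpx2 at 0.18 (SE 0.082, adjusted p = 0.362). By edgeR 0 of 44 members were called (0.774% of all genes), while DESeq2 called 1, Ccne2 at -0.59 (adjusted p = 0.0444), and 5 had an unadjusted p under 0.05 (13.6% of all genes). Groups did not overlap for 8 members (15.2% of all genes, 6.8% higher and 8.43% lower): Mcm7, Cdt1, E2f1, Birc5 and Tpx2 higher at 24 h, and Rrm2, Ccne1 and Ccne2 lower. The S-phase median was 0.047 (14 higher, 9 lower). The G2/M median was 0.027 (14 higher, 7 lower) and changed sign without R-Scm 12 h replicate 3, to -0.15 (4 higher, 17 lower). In that fit 0 members were called and 6 had an unadjusted p under 0.05 (9.77% of all genes), the S-phase median was 0.017 (13 higher, 10 lower), Birc5 was at 0.098 and Ccne1 at -0.21. Intervals lay within 0.58 of 0 for 38 of 44 members (51.1% of all genes).

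Cells moved from Scm to Rcm were read against Scm, which joins the gain of R-FBS with the change of medium. After 12 h the G2/M genes sat higher together, with a median of 0.22, 19 genes higher and 2 lower (Birc5 and Tpx2), beside 0.019 for all genes. S-phase genes had a median of 0.050 (13 higher, 10 lower). Ube2c and Aurkb had the smallest p of the G2/M genes and Rrm2 and Cdc6 of the S-phase genes, and no member passed by edgeR. By edgeR 0 of 44 were differentially expressed (0.858% of all genes), 0 by DESeq2, and 5 had an unadjusted p under 0.05 (14.3% of all genes): Cdc6, Rrm2, Aurkb, Nusap1 and Ube2c. Rrm2 stood at 0.26 (SE 0.077, adjusted p = 0.124) and Cdc6 at 0.24 (SE 0.085, adjusted p = 0.198). By DESeq2 Rrm2 passed the adjusted p (0.0279) at a log2 fold change of 0.26, short of the fold threshold. Ube2c stood at 0.35 (SE 0.13, adjusted p = 0.223) and Aurkb at 0.28 (SE 0.11, adjusted p = 0.258). Groups did not overlap for 16 members (26.4% of all genes, 14.4% higher and 12% lower). All 11 G2/M genes among them were higher: Cdk1, Ccna2, Ccnb1, Ccnb2, Plk1, Aurka, Aurkb, Top2a, Kif11, Nusap1 and Ube2c. The 5 S-phase genes were Mcm10, Cdc6, Rrm2 and Ccne2, which were higher, and Gins2, which was lower. Intervals lay within 0.58 of 0 for 36 of 44 members (52% of all genes). Without S-Rcm 12 h replicate 2 the G2/M median was 0.12 (20 higher, 1 lower), and with the GC and length trend removed it was 0.14 (17 higher, 4 lower).

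After 24 h in Rcm the picture was alike in size. The G2/M median was 0.16, with 19 higher and 2 lower (Cdc20 and Bub1b), beside 0.0061 for all genes, and the S-phase median was 0.014 (14 higher, 9 lower). By edgeR 0 of 44 members were differentially expressed (0.338% of all genes) and 0 by DESeq2. An unadjusted p under 0.05 was found for 6 (8.11% of all genes): Cdc6, Rrm2, Top2a, Nusap1, Prc1 and Ube2c, all higher. Cdc6 stood at 0.23 (SE 0.085, adjusted p = 0.405) and Rrm2 at 0.20 (SE 0.077, adjusted p = 0.444). Top2a stood at 0.32 (SE 0.13, adjusted p = 0.454) and Ube2c at 0.31 (SE 0.13, adjusted p = 0.529). Groups did not overlap for 16 members, all higher than Scm, where 19.5% of all genes were apart, 10.6% higher and 8.87% lower. They were Cdc6, Rrm1 and Rrm2 of S phase and Cdk1, Ccna2, Ccnb2, Aurka, Aurkb, Top2a, Mki67, Kif11, Cenpe, Cenpf, Nusap1, Prc1 and Ube2c of G2/M. Ccnb2 was apart by under 1 CPM. Gaps as small occurred in other comparisons too, among them Plk1 in S-Rcm 12 h (lowest 126.4 CPM) above Scm (highest 126.1 CPM). Cdt1 in R-Scm 24 h (lowest 58.4 CPM) was as close above R-Scm 12 h (highest 58.2 CPM). For 36 of 44 members the interval lay within 0.58 of 0 (54.6% of all genes). Rcm against Scm and both times of S-Rcm against Scm use the same 3 Scm libraries, in which the G2/M members had a mean deviation of -0.11 ± 0.060 (SD, n = 3).

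Between 12 h and 24 h of S-Rcm the members differed little. None of 44 was called by edgeR (0.156% of all genes) or DESeq2, 0 in each, and 0 had an unadjusted p under 0.05 (9.26% of all genes). Gins2 stood at 0.14 (SE 0.11, adjusted p = 0.766) and Ccne1 at -0.14 (SE 0.11, adjusted p = 0.788). Tpx2 stood at 0.13 (SE 0.082, adjusted p = 0.677) and Ccnb1 at -0.13 (SE 0.14, adjusted p = 0.877). The largest difference of any member was 0.17 in size on the log2 scale, and 43 of 44 intervals lay within 0.58 of 0 (54.8% of all genes). Groups did not overlap for 4 members (17.2% of all genes, 8.75% higher and 8.48% lower): Gins2 higher at 24 h, and Gins1, Rrm2 and Ccne1 lower.

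**Figure D5:**
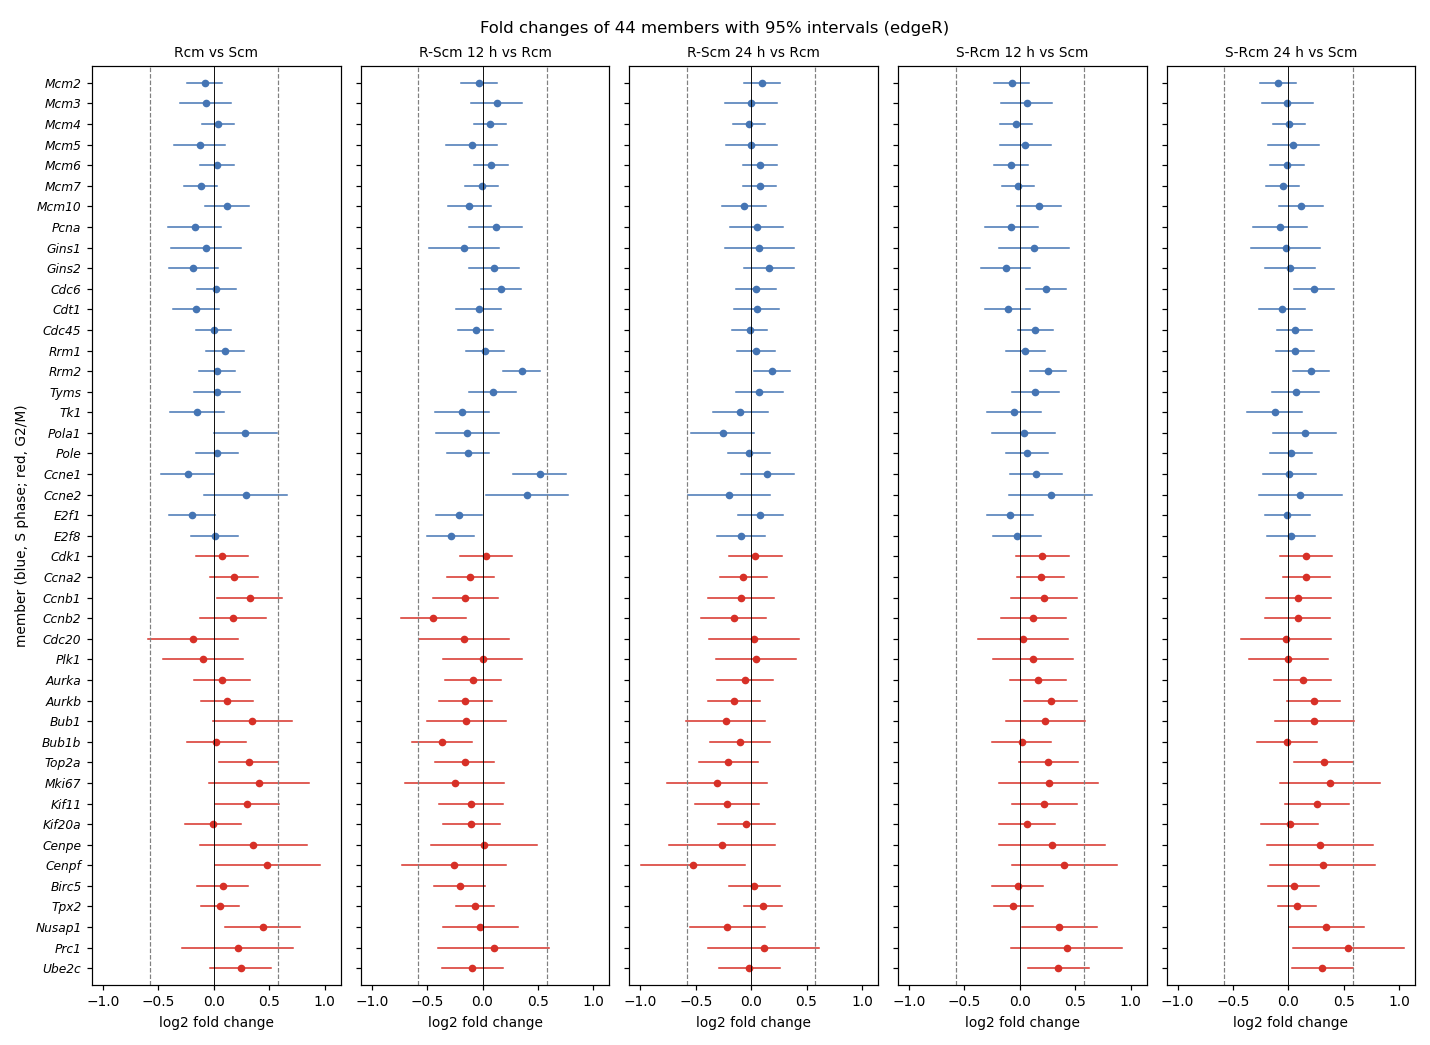
Log2 fold change of each of the 44 members with its 95% interval (edgeR) in the 5 comparisons with a steady group, S-phase genes in blue and G2/M genes in red. Dashed lines mark 0.58 above and below 0. G2/M genes lie to the right in Rcm and S-Rcm against Scm (medians 0.18, 0.22 and 0.16), and most intervals end inside the dashed lines.

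The effects of the 2 exchanges were then set against each other, as the change from Rcm to R-Scm minus the change from Scm to S-Rcm. The moves go opposite ways, so a gene that differs between steady Rcm and Scm tends to show the opposite sign here. The same Rcm and Scm libraries enter that steady comparison, where the G2/M median was 0.18 (18 higher, 3 lower). A difference at 12 h or 24 h therefore does not by itself show that the exchanges act unequally. At 12 h all 21 G2/M members were lower in this difference, with a median of -0.32, and the S-phase median was -0.029 (11 higher, 12 lower), beside -0.029 for all genes. By edgeR 0 of 44 members differed (2.03% of all genes), 0 by DESeq2, and 7 had an unadjusted p under 0.05 (14.7%): Ccne1, which was higher, and Mcm10, Ccnb2, Aurkb, Bub1b, Top2a and Ube2c, which were lower. Ccnb2 stood at -0.57 (SE 0.20, adjusted p = 0.171) and Aurkb at -0.44 (SE 0.16, adjusted p = 0.192). Ccne1 stood at 0.37 (SE 0.16, adjusted p = 0.282) and Mcm10 at -0.29 (SE 0.13, adjusted p = 0.318). Without R-Scm 12 h replicate 3 the G2/M median was -0.17, with 4 higher and 17 lower, that of the S-phase genes was -0.0051, with 10 higher and 13 lower, 0 members were called and 2 had an unadjusted p under 0.05 (12.7% of all genes). Ccnb2 was then at -0.36, Aurkb at -0.29 and Ccne1 at 0.21. Intervals lay within 0.58 of 0 for 24 of 44 members (31% of all genes), and for the rest they reached past it.

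At 24 h the G2/M median of this difference was -0.24 (3 higher, 18 lower) and the S-phase median 0.0070 (12 higher, 11 lower), beside -0.010 for all genes. In edgeR 0 of 44 members differed (1.37% of all genes), 0 by DESeq2, and 7 had an unadjusted p under 0.05 (12.6%): Pola1, Aurkb, Top2a, Mki67, Kif11, Cenpf and Nusap1, all lower. Top2a stood at -0.53 (SE 0.18, adjusted p = 0.187) and Cenpf at -0.83 (SE 0.31, adjusted p = 0.26). Pola1 stood at -0.40 (SE 0.19, adjusted p = 0.394) and Mcm2 at 0.19 (SE 0.11, adjusted p = 0.491). For 29 of 44 members the interval lay within 0.58 of 0 (31.6% of all genes). Without Rcm replicate 3, 11 members had an unadjusted p under 0.05 (edgeR), beside 16.2% of all genes in that fit. Without Rcm replicate 1, 2 members did, beside 10.6% of all genes. The library that stood apart is in none of the groups compared here.

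Further genes of both phases were read from lists that do not hold the members. None of 52 other S-phase genes, such as replication factor and licensing genes, and none of 55 other G2/M genes, such as kinesins, condensins and kinetochore genes, was differentially expressed in any of the 9 comparisons by edgeR. The other G2/M genes had medians of 0.14 in Rcm against Scm (44 higher, 11 lower), 0.13 in S-Rcm 12 h (48 higher, 7 lower) and 0.12 in S-Rcm 24 h (49 higher, 6 lower), each against Scm. They had -0.12 in R-Scm 12 h (8 higher, 47 lower) and -0.082 in R-Scm 24 h (11 higher, 44 lower) against Rcm. Between the exchanges their medians were -0.29 at 12 h (3 higher, 52 lower) and -0.21 at 24 h (6 higher, 49 lower), and without R-Scm 12 h replicate 3 the former was -0.14 (12 higher, 43 lower). The other S-phase genes had medians between -0.074 and 0.060. An adjusted p under 0.05 without the fold was met by 4 of these genes, all in R-Scm 12 h against Rcm. Orc6, of the origin recognition complex (0.37, adjusted p = 0.0366), Prim2, of primase (0.36, adjusted p = 0.0356), and Gtse1, a regulator of G2 (0.30, adjusted p = 0.0274), were higher. Pttg1, securin, was lower (-0.58, adjusted p = 0.00983), just short of the fold threshold. Without R-Scm 12 h replicate 3 Gtse1 kept an adjusted p under 0.05 (0.0331, edgeR), while Orc6 was at 0.30 (adjusted p = 0.170, edgeR), Prim2 at 0.29 (adjusted p = 0.168, edgeR) and Pttg1 at -0.48 (adjusted p = 0.0594, edgeR).

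Upstream of the members are genes that gate the exit from G1. Among 13 G1 cyclins, kinases and pocket proteins, 1 was called in Rcm against Scm, where 2.3% of all genes were. Ccnd2, a D-type cyclin, was higher in Rcm than in Scm by 1.01 (SE 0.17, adjusted p = 0.00272), with 17.8, 16.7 and 17.3 CPM in Rcm and 10, 7.28 and 8.45 CPM in Scm. It was the only gene of that list to be called in any of the 9 comparisons. Its libraries did not overlap, and both values are far below those of Ccnd1, the main D-type cyclin here, at 541, 537 and 600.4 CPM in Rcm and 604, 597 and 593 CPM in Scm. Among 13 inhibitors and growth-arrest genes, 4 were differentially expressed in R-Scm 12 h against Rcm, 2 higher and 2 lower, where 2.74% of all genes were. Ccng1, a p53-induced cyclin, rose by 0.81 (SE 0.14, adjusted p = 0.00338), from 149, 151 and 118 CPM in Rcm to 220.1, 239.9 and 272. Btg2, an antiproliferative gene, rose by 0.76 (SE 0.17, adjusted p = 0.014), from 15.0, 15.0 and 16.8 CPM to 21.7, 22.6 and 34.6. Cdkn2b, the inhibitor p15 of Cdk4 and Cdk6, fell, with a log2 fold change of -0.71 (SE 0.13, adjusted p = 0.00409), from 59.2, 58.6 and 73.0 CPM to 43.7, 38.0 and 34.9. Gas1, a growth-arrest gene, fell too, with -0.80 (SE 0.21, adjusted p = 0.0463), from 229, 235 and 277 CPM to 173, 159 and 94.2. Of these 6 libraries, R-Scm 12 h replicate 3 held the highest Ccng1 and Btg2 and the lowest Cdkn2b and Gas1. Without that library Ccng1 and Cdkn2b were still called, while Btg2 was at 0.51 (adjusted p = 0.0774, edgeR) and Gas1 at -0.57 (adjusted p = 0.182, edgeR). Gas1 also lost its call without R-Scm 12 h replicate 2 or any Rcm library, and Btg2 without Rcm replicate 1 or 2.

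Cdkn1a, the inhibitor p21, had 79.6, 81.4 and 93.5 CPM in Rcm and 143, 153 and 231 CPM in R-Scm 12 h. Its libraries did not overlap, and it differed by 1.05 (SE 0.30, adjusted p = 0.07), which did not pass. In Scm it had 138, 144 and 143 CPM and in S-Rcm 12 h 40.1, 106 and 138 CPM, with S-Rcm 12 h replicate 1 far below the others. By 24 h in Scm Ccng1 had come down, with -0.67 (SE 0.14, adjusted p = 0.0287) against 12 h, and stood at 164, 164 and 134 CPM. That call was lost on leaving out R-Scm 12 h replicate 2 or 3 or R-Scm 24 h replicate 2 or 3, with values of -0.74 to -0.56 over the 6 libraries left out in turn. Btg1, another antiproliferative gene, was lower in Rcm than in Scm by adjusted p alone, at -0.28 (SE 0.071, adjusted p = 0.0458), with 178, 188 and 192 CPM against 226, 226 and 223 CPM. The effects of the exchanges on Ccng1 differed at 12 h by 0.96 (SE 0.20, adjusted p = 0.0174), and those on Cdkn2b by -0.78 (SE 0.18, adjusted p = 0.0307). Without R-Scm 12 h replicate 3 the call on Ccng1 stayed (0.87, adjusted p = 0.0460, edgeR) and that on Cdkn2b was lost (-0.71, adjusted p = 0.0823, edgeR).

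Some members share sequence with copies elsewhere, and their counts carry that doubt. Reads of Ccnb1 can fall on processed pseudogenes: Ccnb1-ps, 99.2% identical over 1287 aligned bases, held 50.4% as many counts as Ccnb1, Gm12856 24.9% and Gm8416 9.80%. Pcna-ps2, 99.2% identical to Pcna, held 66.7% as many counts as Pcna, and Gm5487 10.4% as many as Mcm7. Summing each gene with its copies left 0 members called in every comparison. Besides Ccne2, members that overlap a gene on the opposite strand include Gins2 with Gse1, Kif20a with Cdc23, Mcm7 with Cops6 and Ap4m1, and Cdc45 with Ufd1, and without knowledge of strand their reads cannot be told apart.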

How the data were processed

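Cells were the MEFs in 6 groups described above, read as poly(A) RNA by paired-end sequencing. The authors aligned the reads with HISAT2 to GRCm38 and deposited raw counts per gene, and the counting tool, its use of strand and its treatment of reads with several matches are not given in the sources used here. All 18 columns of the table were mapped to samples by name, with 0 columns left unused. Of 55487 genes, 40106 were removed as low by edgeR's filter by group and 15381 were tested. Counts were scaled by TMM and fitted over all 18 libraries, 1 term a group and 12 residual degrees of freedom, with edgeR 4.0.16 (robust quasi-likelihood F test, common dispersion 0.0298, R 4.3.3, limma 3.58.1). P-values were adjusted by Benjamini-Hochberg over all genes tested, and a gene was called at an adjusted p under 0.05 with an absolute log2 fold change above 0.58. Group comparisons used no covariate. CPM used TMM-scaled library sizes, and log2 CPM a prior count of 2. All members were counted in each comparison. For each comparison the 2 S-phase and 2 G2/M genes of smallest p were given with full statistics, and their values by library, like those of Mcm5, Pcna, Ccne1, E2f1, Rrm2, Cdk1, Ccnb1, Cdc20, Top2a and Mki67, are all printed. Genes of other lists were named where they passed a threshold or stood on the G1 or inhibitor list. The members and lists were chosen with earlier results of these data known. Alternatives were 2 other scalings, 2 other filters, adjusted p alone, the compared groups only, a replicate block, DESeq2 1.42.0, and each library left out in turn. A further 2, the sum of near-identical copies (blastn 2.17.0, at least 95% identity) and removal of a trend on GC content and length, were chosen after seeing the data. Promoter windows are from RefSeq on GRCm38.p6. Figures were drawn with matplotlib 3.10.9 in Python 3.11.15.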

Additional observations from a re-analysis of the deposited data

Results flagged for a closer look

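The effects of the exchanges (R-Scm against Rcm, minus S-Rcm against Scm) differed by an edgeR interaction term for genes outside the 44, and for none of the 44. For a gene that differs between steady Rcm and Scm, moves in opposite directions can give such a term without acting unequally. Col3a1 was higher, and Tubb3 and Btg1 lower, in Rcm than in Scm, each opposite in sign to its term here. Btg1, an antiproliferative gene, differed at 12 h by 0.53 (SE 0.10, adjusted p = 0.00852) on the log2 scale, and at 24 h by 0.47 (SE 0.10, adjusted p = 0.0281). Ccng1 differed at 12 h by 0.96 (SE 0.20, adjusted p = 0.0174), a call lost in 2 of 22 alternatives, without S-Rcm 12 h replicate 1 or 3. Cdkn2b differed at 12 h by -0.78 (SE 0.18, adjusted p = 0.0307), a call lost in 9 of 22. Col3a1, a fibrillar collagen, differed at 12 h by -2.05 (SE 0.47, adjusted p = 0.0345) and at 24 h by -2.15 (SE 0.47, adjusted p = 0.038), calls lost in 13 and 12 of 22. Pdgfra, a growth factor receptor of fibroblasts, differed at 12 h by -0.53 (SE 0.11, adjusted p = 0.0158). Tubb3, a tubulin, differed at 24 h by 1.14 (SE 0.27, adjusted p = 0.0447), a call lost in 10 of 22 alternatives. The values for Btg1 and Pdgfra were under the fold threshold, which Btg1 passed at 12 h without R-Scm 12 h replicate 2 (0.59). The losses for Cdkn2b, Col3a1 and Tubb3 came on leaving out single libraries of all 4 groups compared, besides, for the latter 2, the looser filter or the compared groups alone.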

How the results depend on the processing

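No member was called in 152 of 156 recounts under the alternatives. Fold changes were recomputed only for the 2 S-phase and 2 G2/M members of smallest p in each comparison. None of these 624 values turned its direction, which says little of the other members. Medians did turn with single libraries left out. That of the G2/M genes ran from -0.23 to 0.035 for R-Scm 12 h against Rcm, and from -0.15 to 0.12 between the times of R-Scm. The 4 recounts above 0 were R-Scm 12 h against Rcm by adjusted p alone, with 2 members (Ccne1 and Rrm2), and without Rcm replicate 3 or R-Scm 12 h replicate 2, where leaving out each library gave 0 to 2 members, and R-Scm 24 h against R-Scm 12 h by DESeq2, with 1 member (Ccne2). With the replicate block, on the numbers of the titles, 0 members were called in each of the 9 comparisons. Of 45 same-numbered pairs, 11 had a correlation of deviations over 0.1 (range -0.20 to 0.35, against -0.27 to 0.21 for other numbers). These values do not settle whether the numbers pair the libraries, since other-numbered pairs over 0.1 were not counted. The table numbers the libraries of S-Rcm 24 h, R-Scm 12 h and R-Scm 24 h as 1, 3 and 4 where the titles have 1, 2 and 3, and a block on those numbers was not run. Outside the members, for genes picked because they passed a threshold, 83 of 464 recomputed fold changes lost their call, 14 gained one and 0 turned direction. Counts of calls over all genes moved more. DESeq2 called 164 genes in R-Scm 24 h against Rcm (58 by edgeR), 254 and 136 against Scm at 12 h (132) and 24 h (52) of S-Rcm, 231 between the times of R-Scm (119) and 86 between those of S-Rcm (24), and 469 and 395 in the exchange differences at 12 h (312) and 24 h (211). The compared groups alone gave 237 calls for R-Scm 12 h against Rcm, against 421, 4 for R-Scm 24 h, 260 for S-Rcm 12 h, 90 for S-Rcm 24 h, 2 between the times of R-Scm and 143 for the difference at 24 h. Adjusted p alone gave 644 for R-Scm 12 h against Rcm. Removal of the GC and length trend gave 105 for R-Scm 24 h, 205 for S-Rcm 12 h, 83 for S-Rcm 24 h, 40 between the times of S-Rcm and 329 for the difference at 24 h. Leaving out 1 library gave 178 to 574 calls for Rcm against Scm (354 in full), 275 to 420 for R-Scm 12 h, 14 to 501 for R-Scm 24 h, 36 to 76 for S-Rcm 12 h, 6 to 28 for S-Rcm 24 h, 57 to 309 and 8 to 16 between times of R-Scm and of S-Rcm, and 176 to 289 and 120 to 761 for the differences at 12 h and 24 h, where 309, 501 and 761 are the counts without R-Scm 24 h replicate 1 and 574 that without Rcm replicate 3. The causes of these shifts were not tested. Member differences under 0.58 on the log2 scale could not be called by rule, whatever the depth.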

Other observations

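Among the markers used to check the culture, 4 were called in at least 1 comparison by edgeR. Tubb3, a neuronal tubulin that other dividing cells can also express, was lower in Rcm than in Scm, with -1.05 (SE 0.19, adjusted p = 0.00565), and rose after the move from Rcm to Scm, with 1.02 (SE 0.19, adjusted p = 0.00525) at 12 h and 0.96 (SE 0.19, adjusted p = 0.0394) at 24 h. It had 16.4, 14.7 and 16.2 CPM in Scm, 7.36, 6.19 and 9.25 CPM in Rcm and 19.0, 13.8 and 13.4 CPM in R-Scm 12 h. Col3a1 was higher in Rcm than in Scm, with 1.5 (SE 0.33, adjusted p = 0.0271), at 821, 844 and 809 CPM against 299.5, 279 and 296 CPM. Pdgfrb, a receptor for platelet-derived growth factor, fell in R-Scm 12 h, with -0.72 (SE 0.19, adjusted p = 0.0394). Thy1, a surface protein of fibroblasts, rose in S-Rcm 12 h against Scm, with 0.71 (SE 0.12, adjusted p = 0.00657). The Thy1 call held in all 16 alternatives. Those of Pdgfrb and Col3a1 were lost in 7 and 6 of 16, on leaving out any library compared other than Rcm replicate 3 for Col3a1, and with the looser filter. Those of Tubb3 at 12 h and 24 h were lost in 1 and 5 of 16, both with the compared groups alone, and at 24 h without Rcm replicate 1 or 2 or R-Scm 24 h replicate 2 or 3.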
